A study of Mus musculus with 12 samples.

Results

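The genes described here encode the proteins of the cytosolic ribosome, 50 genes of the 18194 that had a probe set of their own on the arrays. They were chosen by symbol: Rpl or Rps followed by a digit, or Rplp0, Rplp1, Rplp2 and Rpsa, without Rps6k kinases and pseudogene symbols. Of several probe sets for a gene, the brightest by its average across the 12 arrays stood for it. The 50 genes fell into 22 large subunit proteins, 21 small subunit proteins, 6 paralog or like genes (Rpl3l, Rpl7l1, Rpl22l1, Rpl39l, Rps27l and Rps4l) and 1 gene that the symbol pattern takes in although it does not encode a ribosomal protein, Rps19bp1, whose product binds RPS19.

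BNL CL.2, a mouse line of embryonic liver origin, was profiled on 12 Affymetrix arrays in 4 groups of 3. RAW_FAC cells shared medium with RAW 264.7 macrophages, a mouse macrophage line kept in a culture insert, and received 100 micromolar ferric ammonium citrate (FAC), an iron salt, for 24 h. FAC cells received the same iron salt with no macrophages. RAW cells had macrophages in the insert and no added iron. The group called alone had neither, and its insert held further BNL CL.2 cells. The labels leave unsaid whether replicates came from separate cultures, and the spread behind every p-value here may be partly technical. All groups rest on 1 liver line and 1 macrophage line.

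The cytosolic ribosome joins a large subunit, which forms peptide bonds, to a small subunit, which reads the mRNA. Its protein mRNAs are among the most abundant of a growing cell, and many begin with a 5′ terminal oligopyrimidine (TOP) tract, through which mTOR and LARP1 control their translation. That control acts on ribosome loading, which total RNA on an array does not measure. Several members, among them Rplp0, Rpl13a and Rps18, serve as reference genes in quantitative PCR.

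The start of the mRNA is shown for the members with a TOP-like tract exactly at the annotated start, since that tract is the sequence feature the family is known for. RefSeq promoters on build GRCm38.p6 were matched by symbol for 44 of the 50 members. A C at the first base followed by 4 bases that are each C or T was found in 8 of the 44 (18.2%), against 813 of 27025 genes (3.01%). Each line gives 10 bases before the start and 20 from the start on, 5′ to 3′ on the gene's strand, with the tract in capitals.
Rpl14 (chr9:120571507-120571536, plus): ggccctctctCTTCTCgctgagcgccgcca
Rpl35 (chr2:39005112-39005141, minus): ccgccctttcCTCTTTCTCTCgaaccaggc
Rpl38 (chr11:114668570-114668599, plus): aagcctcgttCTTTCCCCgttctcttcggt
Rplp2 (chr7:141447641-141447670, plus): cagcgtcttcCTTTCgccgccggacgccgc
Rps10 (chr17:27635225-27635254, minus): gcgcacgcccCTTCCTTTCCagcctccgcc
Rps18 (chr17:33955646-33955675, minus): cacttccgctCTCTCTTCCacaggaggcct
Rps27 (chr3:90213629-90213658, minus): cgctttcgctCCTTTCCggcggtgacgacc
Rps6 (chr4:86857348-86857377, minus): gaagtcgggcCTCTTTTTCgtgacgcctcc

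The tract ran from 5 bases in Rplp2 to 11 in Rpl35. Allowing the tract to begin within 5 bases of the annotated start raised the share to 20 of 44 members (45.5%), against 21.2% of all genes. CCGGAAG, a motif bound by ETS factors, stood on either strand of the window (250 bases before to 50 after the start) in 21 members (47.7%), against 9.93% of genes. TATAAA, searched on the gene's strand and its complement, was in 6 members (13.6%) and 15.7% of genes. These matches describe letters in a window and were not tied to the array values.

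Values were log2 RMA signals, from 2.42 to 14.6 over all probe sets, with array medians of 5.63 to 5.68. A probe set's signal depends on its probes as well as on the mRNA, so the order of signals is not an order of mRNA amounts. The members lay at the bright end of that scale. Their median of gene means was 13.89, against 6.82 over all 18194 genes. Within 1 unit of the highest gene mean (14.52) lay 36 of the 50 members (72%), against 118 of all genes (0.649%). Of the 40 genes with a mean above 14, 23 were members. The highest gene mean of all belonged to Rpl41, a very short large subunit protein, followed among the members by Rpl37a at 14.42, Rps2 at 14.33, Rpl7a at 14.32 and Rplp2 at 14.29. Rplp2 is a protein of the stalk that recruits translation factors.

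**Figure D1:**
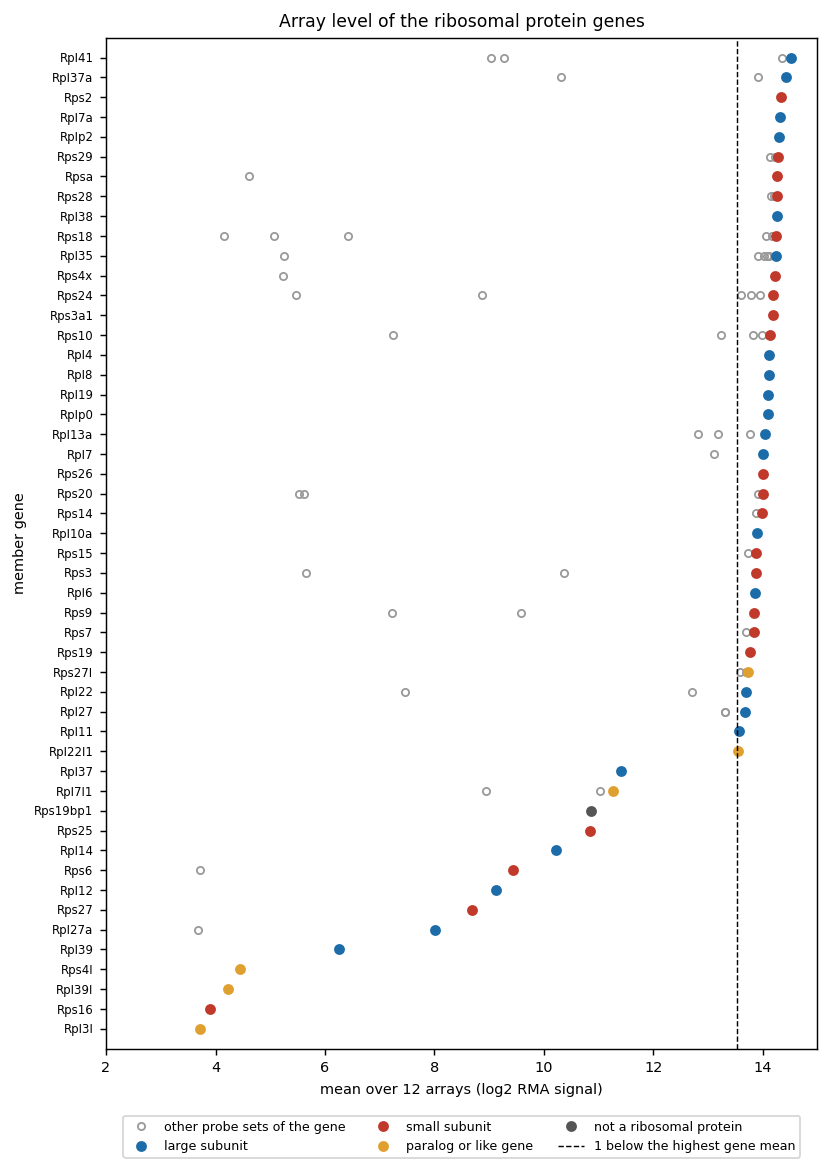
Mean log2 RMA signal over 12 arrays (x axis) of each member gene (y axis, highest at the top). Filled points are the probe set used, coloured by class, open points are the gene's other probe sets, and the dashed line lies 1 unit below the highest gene mean. Of the 50 genes, 36 lie right of the line.

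At the edge of that band, Rpl22l1 (13.55) and Rpl11 (13.56) were the nearest members inside it, and Rpl37 (11.41) and Rpl7l1 (11.26) the nearest outside it. The 14 members further from the top included 9 core subunit genes: Rpl12, Rpl14, Rpl27a, Rpl37, Rpl39, Rps6, Rps16, Rps25 and Rps27. All 9 were also listed on brighter probe sets that carry several gene symbols, and the brightest such probe set had a mean between 13.7 and 14.4 for each of the 9, within 1 unit of the top. Low values of these genes here are those of the single-symbol probe set and were not taken as levels of the gene. The brighter probe sets carry other symbols too, so their signal cannot be assigned to 1 gene. Rps16, a small subunit protein, had a mean of 3.90, Rpl39, a protein of the exit tunnel, 6.26, Rpl27a 8.01 and Rps27 8.69. Among the like genes, Rpl3l, the striated muscle paralog of Rpl3, was at 3.72, Rpl39l, the paralog best known from testis, at 4.22, and Rps4l at 4.44. A further 31 ribosomal protein symbols, such as Rpl3, Rpl5, Rplp1, Rpl36a and Rpl36al, stood only on probe sets with several symbols and were not analysed one by one here.

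The spread between replicates was small where the signal was high. The median residual SD was 0.0245 for the 36 members near the top and 0.0878 for the 14 further from it. It was 0.0467 for the 82 other genes near the top and 0.109 for all genes. From the darkest to the brightest of 9 level bins, the median SD over all genes was 0.113 at a mean of 4 or less and 0.0234 above 14. The brightest bin is largely the members themselves, 23 of its 40 genes. Whether the probes near the top were still proportional to mRNA was not tested. The largest SDs among the members were those of Rpl27a (0.396), Rpl12 (0.177), Rps25 (0.174), Rps4l (0.168) and Rpl7l1 (0.124), all further from the top.

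**Figure D2:**
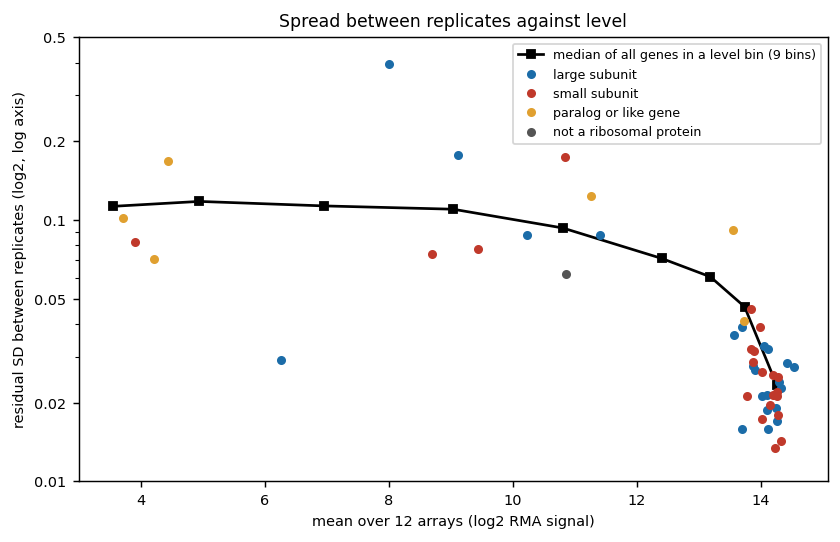
Residual SD between replicates on the log2 scale (y axis, log axis) against mean log2 RMA signal over 12 arrays (x axis), with 1 point per member gene coloured by class. The black line joins the medians of all genes in 9 level bins, and falls to 0.0234 in the brightest bin, where 23 of 40 genes are members. Rpl27a is the highest point at 0.396.

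No ribosomal protein gene passed the test in any comparison. In limma with Benjamini-Hochberg adjustment over all 18194 genes, 0 of the 50 members had an adjusted p under 0.05 in any of the 8 comparisons. The share of all genes called was 0% in the 5 comparisons between groups and in the interaction, 0.0055% (1 gene) in the average iron effect and 0.011% (2 genes) in the average macrophage effect. An average effect is the mean of the 2 differences for one factor, with and without the other. With the replicate number as a block, limma also called 0 members. It then called 0.033% of all genes in FAC against alone, 0.0769% in RAW_FAC against RAW, 0% in RAW against alone and in RAW_FAC against FAC, 0.203% in RAW_FAC against alone, 0% in the interaction, 0.791% in the average iron effect and 0.055% in the average macrophage effect.

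At an unadjusted p under 0.05 and without the block, limma named 1 member, Rps16, in each of RAW_FAC against RAW (5.71% of all genes), RAW against alone (3.81%), the average iron effect (6.51%) and the average macrophage effect (3.94%). It named 0 members in FAC against alone (3.03% of all genes), RAW_FAC against FAC (3.15%), RAW_FAC against alone (4.88%) and the interaction (2.97%). With the block, limma named 1 member as higher in RAW_FAC against alone (5.73% of all genes) and 1 in the interaction (1.65%). It also named 1 as higher in RAW_FAC against RAW (6.24%) and in the average iron effect (6.23%). As lower it named 1 in RAW against alone (2.37%) and in the average macrophage effect (3.06%).

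The liver line's own markers were mixed. Krt8 (14.28), Krt18 (14.07), Apob (11.8) and Hnf4a (10.5) were bright, while Alb (5.20), Apoa1 (6.24) and Ttr (6.49) were low. The mean of 15 macrophage markers lay between 5.58 and 5.64 in RAW_FAC, 5.57 and 5.63 in FAC, 5.58 and 5.63 in RAW, and 5.54 and 5.61 in alone arrays, and Ptprc (3.499) and Itgam (3.69), defining macrophage genes, were low throughout. Cd14 was the bright one at 12.04. The 3′ minus 5′ difference of Actb, a sign of RNA integrity, was 0.319 to 0.420 over the 12 arrays. That of Gapdh was -0.0527 to 0.112. For both genes, none of the 5 comparisons between groups went below p = 0.3 in a two-sided exact permutation test, where 0.1 is the smallest possible.

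The members near the top varied little from array to array. Rpl41 had 14.55, 14.51 and 14.55 in RAW_FAC, 14.53, 14.53 and 14.47 in FAC, 14.49, 14.54 and 14.50 in RAW, and 14.56, 14.53 and 14.53 in alone cells. All 4 groups overlapped. Rplp0, the base of the stalk and a common reference gene, had 14.07, 14.12 and 14.09 in RAW_FAC, 14.12, 14.08 and 14.06 in FAC, 14.11, 14.10 and 14.09 in RAW, and 14.10, 14.10 and 14.09 in alone cells. Its average iron effect was -0.0082 ± 0.038 (SE) and its average macrophage effect 0.0039 ± 0.038, with 95% intervals of -0.091 to 0.074 and -0.078 to 0.086. Rpl13a, a reference gene whose product also takes part in an interferon-gamma-induced translational silencing complex, had 14.039, 14.102 and 14.058 in RAW_FAC, 14.062, 13.995 and 14.014 in FAC, 14.028, 14.073 and 14.003 in RAW, and 14.015, 14.066 and 14.015 in alone cells. Its groups overlapped too, with an average iron effect of 0.012 ± 0.040 and an average macrophage effect of 0.022 ± 0.040. Rps18, the third reference gene, had 14.27, 14.25 and 14.28 in RAW_FAC, 14.26, 14.29 and 14.25 in FAC, 14.18, 14.25 and 14.20 in RAW, and 14.24, 14.27 and 14.26 in alone cells. RAW replicates 1 and 3 were the lowest of the 12 arrays, while RAW replicate 2 lay among the others. All RAW_FAC arrays lay above all RAW arrays, with a difference of 0.055 ± 0.054 for Rps18 (limma, adjusted p = 0.895). In its next brightest probe set the groups overlapped, with replicate 2 at 14.1413 in RAW_FAC and 14.1983 in RAW. In the one after that the order was reversed. There RAW_FAC had 14.0217, 14.0966 and 14.0351, all below RAW at 14.1158, 14.0968 and 14.1149.

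**Figure D3:**
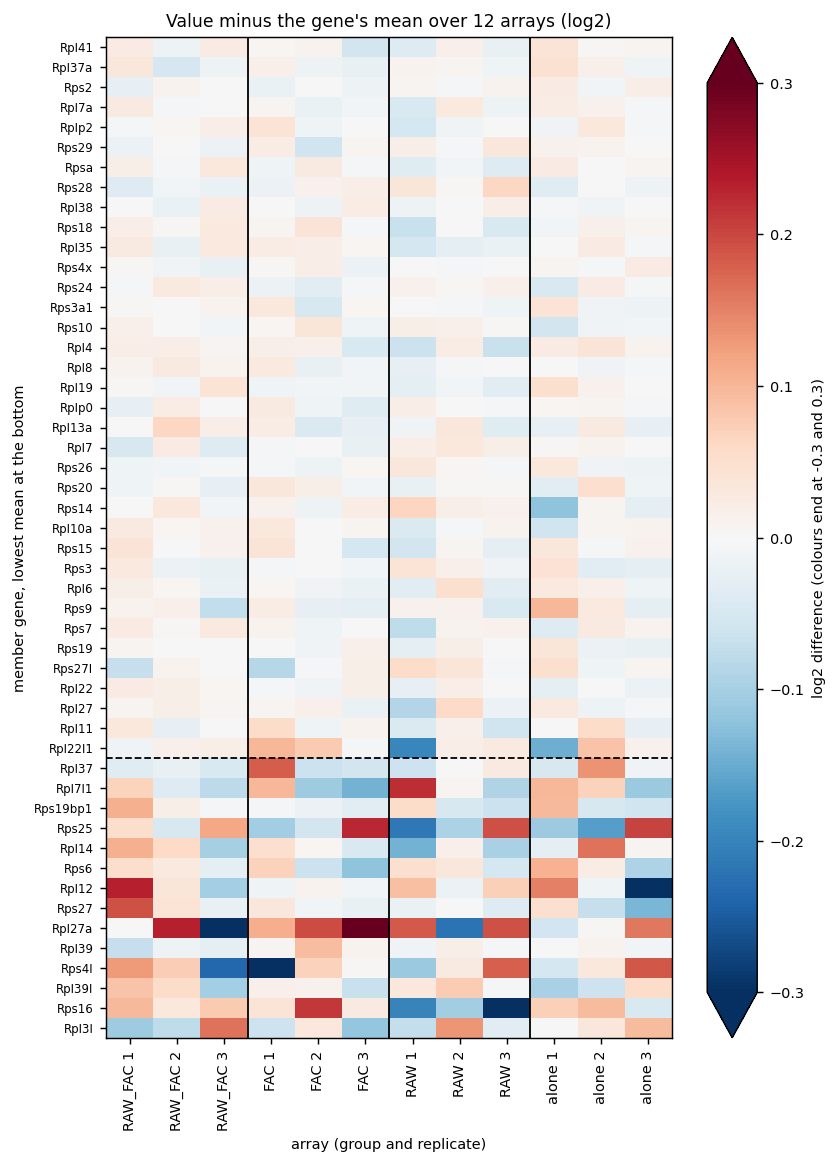
Each member gene's value minus its mean over 12 arrays (colour, log2, ending at -0.3 and 0.3), with arrays on the x axis by group and replicate and genes on the y axis, lowest mean at the bottom. Above the dashed line are the 36 genes near the top, mostly pale, with Rpl22l1 low in replicate 1 of RAW and of alone. Rpl27a in RAW_FAC replicate 3, Rpl12 in alone replicate 3 and, narrowly, Rps16 in RAW replicate 3 are past the blue end.

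Iron without macrophages gave changes of both signs. In FAC against alone, the median change of the 50 genes was -0.0060 on the log2 scale, with 22 of 50 above 0 (47.8% of all genes), against a median of -0.0043 over all genes. Changes near the top ran from -0.045 to 0.074. Rps4l (-0.13 ± 0.12), Rpl3l (-0.093 ± 0.084) and Rpl7l1 (-0.068 ± 0.095) had the lowest values, and Rpl27a (0.18 ± 0.26), Rpl12 (0.097 ± 0.12) and Rpl22l1 (0.074 ± 0.079) the highest, each ± SE with an adjusted p of 1.00 in limma. Without alone replicate 3, whose Rpl12 value was 8.68, the Rpl12 difference was -0.073. Without FAC replicate 1, Rps4l was at -0.018, and without alone replicate 1, Rpl22l1 was at 0.0090. Without FAC replicate 3, Rpl7l1 was at -0.022, Rpl3l at -0.059 and Rpl27a at 0.12. In 0 members did all FAC arrays lie above all alone arrays (3.74% of all genes), and in 2, Rpl19 and Rpl7, they lay below (3.82%).

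In the presence of macrophages, iron gave a median of 0.0074 in RAW_FAC against RAW, with 28 of 50 above 0 (50% of all genes), against a median of nearly 0 over all genes. Rps16 stood apart from the rest. It had 3.9999, 3.933 and 3.981 in RAW_FAC, 3.943, 4.113 and 3.930 in FAC, 3.702, 3.797 and 3.597 in RAW, and 3.973, 3.996 and 3.857 in alone cells. The 3 RAW arrays were the lowest of the 12. RAW_FAC against RAW was 0.27 ± 0.07 for Rps16 (unadjusted p = 0.0029, limma adjusted p = 0.849, and 0.160 with the replicate block). That probe set is dim, and the gene's other listings are on brighter probe sets with several symbols. The next values were Rpl14 (0.097 ± 0.077) and Rps27 (0.089 ± 0.071), and at the low end Rpl27a (-0.36 ± 0.26), Rpl7l1 (-0.064 ± 0.095) and Rps28 (-0.056 ± 0.054). Without RAW_FAC replicate 1, Rpl14 was at 0.054 and Rps27 at 0.029, and without RAW replicate 1, Rpl7l1 was at 0.024. Groups did not overlap in 4 members that were higher, Rpl8, Rps16, Rps18 and Rpsa (4.48% of all genes), and in 2 that were lower, Rpl39 and Rps28 (5.27%).

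Macrophages without iron gave a median of -0.0083 in RAW against alone, with 20 of 50 above 0 (49.8% of all genes), against a median of -0.0003 over all genes. Rps16 was at -0.24 ± 0.07 (unadjusted p = 0.0062, limma adjusted p = 1.00). It was followed by Rpl14 at -0.12 ± 0.08 and Rpl4 at -0.062 ± 0.056, and at the other end stood Rpl12 (0.15 ± 0.12), Rps14 (0.077 ± 0.058) and Rpl39l. Without alone replicate 3 the Rpl12 difference was -0.020. Without alone replicate 1, Rps14 was at 0.040 and Rpl39l at 0.039, and without alone replicate 2, Rpl14 was at -0.064. In 4 members all RAW arrays lay above all alone arrays, Rpl7, Rps10, Rps14 and Rps28 (5.16% of all genes), and in 4 below, Rpl19, Rpl35, Rps16 and Rpsa (3.61%). That was read in the probe set used. In the next brightest probe sets of Rpl7, Rps10, Rps14, Rps28 and Rpl35 the groups overlapped. The other Rps14 probe set, at 13.87, had an average macrophage effect of -0.0042, against 0.039 for the one used. RAW against alone shares the RAW arrays with the comparison before and the alone arrays with FAC against alone.

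With iron present, macrophages gave a median of 0.0063 in RAW_FAC against FAC, with 32 of 50 above 0 (53.9% of all genes), against a median of 0.0077 over all genes. Rpl27a had the largest difference, -0.52 ± 0.26 (limma, adjusted p = 1.00). It had 8.01, 8.24 and 6.86 in RAW_FAC, 8.12, 8.20 and 8.36 in FAC, 8.19, 7.79 and 8.20 in RAW, and 7.95, 8.01 and 8.17 in alone cells. RAW_FAC replicate 3 was the lowest of the 12 arrays, and the next was RAW replicate 2. Without RAW_FAC replicate 3 the difference was -0.10 in RAW_FAC against FAC, 0.065 in RAW_FAC against RAW and 0.083 in RAW_FAC against alone. Rpl19 and Rps19bp1 lay higher in all RAW_FAC arrays (3.63% of all genes), and Rpl39 lower (3.02%).

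Set against neither treatment, RAW_FAC cells had a member median of 0.0002, with 25 of 50 above 0 (51.9% of all genes), against a median of 0.0042 over all genes. Rpl12 (0.16 ± 0.12) and Rps27 (0.12 ± 0.07) were highest and Rpl27a (-0.34 ± 0.26) lowest. The Rpl12 difference was -0.013 without alone replicate 3, and that of Rps27 was 0.062 without RAW_FAC replicate 1. Rps27, a small subunit protein with a zinc finger, had 8.88, 8.73 and 8.67 in RAW_FAC and 8.74, 8.62 and 8.56 in alone cells, higher in each of the 3 same-number pairs with the groups overlapping (limma, adjusted p = 0.956). Its paralog Rps27l, a p53 target, had 13.66, 13.73 and 13.72 in RAW_FAC and 13.77, 13.71 and 13.73 in alone cells. All RAW_FAC arrays lay above all alone arrays in Rpl22, Rpl8 and Rps10 (4.67% of all genes), and below in Rpl39 and Rps29 (4.36%).

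**Figure D4:**
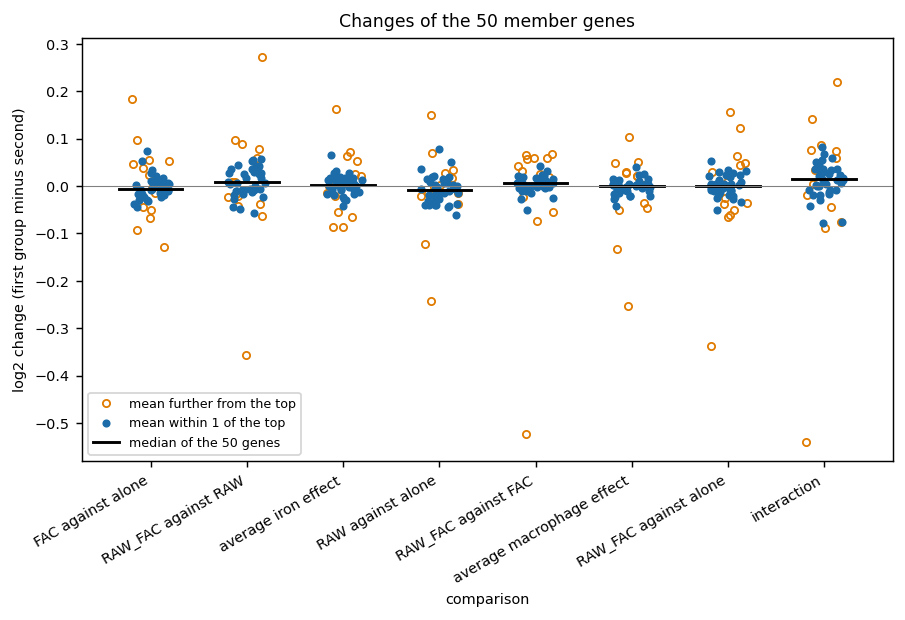
Log2 change (y axis, first group minus second) of the 50 member genes in 8 comparisons (x axis). Filled points are the 36 genes near the top, open points the 14 further from it, and the black bars are medians, which lie between -0.0083 and 0.0153. The lowest open point in several comparisons is Rpl27a.

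Rpl22 and Rpl22l1 encode paralogs, and in mouse Rpl22 represses Rpl22l1. Rpl22 had an average iron effect of 0.017 ± 0.038 and an average macrophage effect of 0.015 ± 0.038. The dimmest of its 3 probe sets, at 7.46, had -0.18 and -0.089. Rpl22l1 had 0.066 ± 0.056 and -0.042 ± 0.056 in the same effects. Its value was 13.54, 13.57 and 13.57 in RAW_FAC, 13.65, 13.63 and 13.55 in FAC, 13.36, 13.57 and 13.58 in RAW, and 13.40, 13.64 and 13.56 in alone cells, so that replicate 1 of RAW and of alone were the low ones. Without RAW replicate 1, its effects were 0.029 and -0.0051. Rps25, required for some internal ribosome entry sites, had its highest value in replicate 3 of all 4 groups, 10.96 in RAW_FAC, 11.07 in FAC, 11.04 in RAW and 11.05 in alone cells. The other 8 arrays lay between 10.63 and 10.90. Rpl7l1 showed the reverse, with its lowest value in replicate 3 of each group, from 11.12 to 11.18. The 3′ minus 5′ difference of Gapdh was also highest in replicate 3 of each group, at 0.112 in RAW_FAC, 0.0559 in FAC, 0.0875 in RAW and 0.0931 in alone cells. Its part in the values of Rps25 and Rpl7l1 was not tested.

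Member medians within same-number replicates lay on both sides of 0 in 6 of the 8 comparisons. Over the 50 members, RAW against alone was -0.0385 in replicate 1, 0.0019 in replicate 2 and 0.0001 in replicate 3. RAW_FAC against RAW was 0.0338, -0.0024 and 0.0052. RAW replicate 1 was the lowest array for the members, with a median deviation of -0.0203. In RAW_FAC against FAC all 3 replicate medians were above 0, at 0.0009, 0.0124 and 0.0042, and so were those of the interaction, at 0.0197, 0.0082 and 0.0122. Replicate medians of the other comparisons stayed between -0.0168 and 0.0197.

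**Figure D5:**
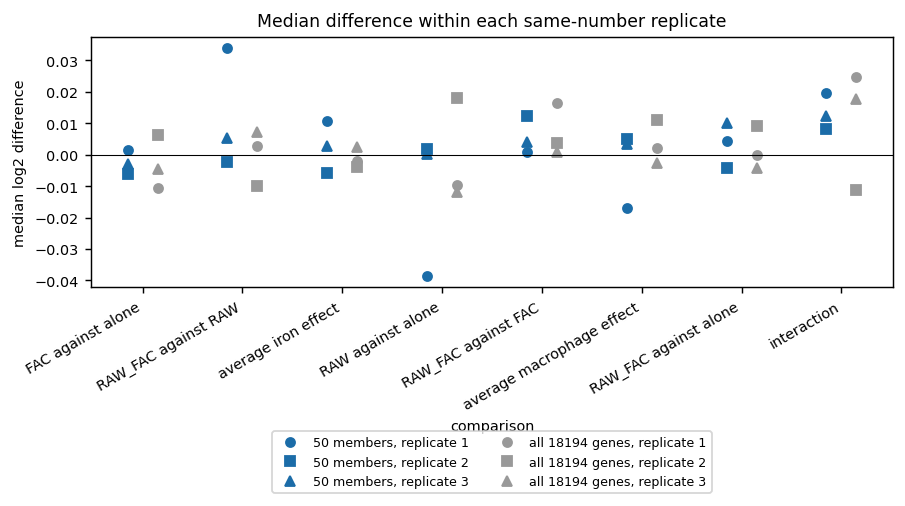
Median log2 difference (y axis) within each same-number replicate for the 50 members (blue) and all 18194 genes (grey) in 8 comparisons (x axis), with the replicate shown by the marker. The values farthest from 0 are replicate 1 of the members in RAW against alone (-0.0385) and in RAW_FAC against RAW (0.0338).

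The interaction asks whether iron differed in effect with and without macrophages, and no member passed its test. It had a member median of 0.0153, with 32 of 50 above 0 (54.3% of all genes), against a median of 0.0107 over all genes. Rps16 (0.22 ± 0.11) was highest and Rpl27a (-0.54 ± 0.37) lowest, and Rpl27a was at -0.12 without RAW_FAC replicate 3. The smallest adjusted p of a member was 1.00 in limma and 0.999 with the replicate block.

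The 95% interval of a member reached, in the median, 0.119 to either side of its change in the comparisons between 2 groups and 0.0844 in the average effects. In the averages, the interval lay within ±0.1, a fold of 1.07, for 24 of 50 members for iron and 27 for macrophages. limma draws each gene's variance toward that of all genes, so the median SE of the members between 2 groups was 0.0552. With a prior that followed the level and limma's robust option, that SE was 0.0342. With those settings, 35 members lay within ±0.1 in each average effect. The average iron effect had a member median of 0.0028, with 29 of 50 above 0 (48.9% of all genes), and the average macrophage effect 0.0006, with 26 of 50 (53.8%).

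Probe sets of one gene mostly moved little, with the largest exceptions at low signal. Smaller ones lay higher. The Rps15 probe set at 13.73 had an average iron effect of 0.071, against 0.012 for the one at 13.88. An Rps3 probe set with values of 10.14 to 10.57 had -0.12. For Rps20, the probe sets at 14.007 and 13.91 had average iron effects of 0.0033 and -0.0060, while the dim ones at 5.52 and 5.62 had -0.29 ± 0.08 and -0.21. The probe set at 5.52 had an unadjusted p of 0.0031, and a limma adjusted p of 0.706, or 0.108 with the block. The largest gap between probe sets of a gene after Rps20 (0.288) was that of Rps3 (0.243) for iron, and that of Rpl27a (0.334) for macrophages. Values near the top may understate a change, so 13 dimmer probe sets (means 8.87 to 13.3) of 10 near-top genes were also read. Only means above 8 were taken. That left out the dim Rps20 probe sets above and an Rpl22 one at 7.46, with -0.18 for iron. Dim probe sets of other near-top genes were left out too, with iron effects of both signs. Among them were Rps3 at 5.65 (0.12), Rps10 at 7.24 (0.090) and Rpl35 at 5.25 (-0.087). The median of the 13 was 0.0134 for iron and 0.0143 for macrophages, with no adjusted p below 0.932 without the block. With the block, the smallest of the 13 was 0.357 for iron and 0.911 for macrophages (limma). The 110 probe sets that list a ribosomal protein with other symbols had medians between -0.014 and 0.011 over the 8 comparisons, and none went below an adjusted p of 0.903, or 0.446 with the block.

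The genes around the ribosome were read in the same fit, from lists of translation factors and other TOP genes (32 of 39 found), ribosome biogenesis factors (47 of 48), translation control genes (19 of 21) and mitochondrial ribosomal proteins (76). In all 4 lists 0 genes passed in any comparison with limma's constant prior, with or without the block. An alternative added after the data were seen joined the prior that follows the level, limma's robust option and the block. With it, 3 translation control genes passed. Eif4ebp1, an mTOR-regulated repressor of eIF4E, and its paralog Eif4ebp2 passed in the average iron effect, at 0.20 and 0.22 (limma, adjusted p = 0.00593 and 0.0457). Eif2ak2 passed in the average macrophage effect at 0.41 and in RAW_FAC against alone at 0.44 (limma, adjusted p = 0.0289 and 0.0443). That setting called higher 1.37% of all genes for iron, 0.104% for macrophages and 0.588% in RAW_FAC against alone. The other 3 lists had 0 such calls. In the average iron effect the medians were -0.0054 for translation factors and other TOP genes, -0.0033 for biogenesis, 0.0255 for translation control and -0.0090 for mitochondrial ribosomal proteins, against -0.0019 over all genes. In the average macrophage effect biogenesis had 38 of 47 genes above 0, with a median of 0.0268, against 53.8% above 0 and a median of 0.0054 over all genes. Its median was -0.0180 in replicate 1, with 20 of 47 above 0, and 0.0392 and 0.0703 in replicates 2 and 3. Eif2ak2, the interferon-induced kinase PKR that phosphorylates eIF2 alpha, had an average macrophage effect of 0.41 ± 0.08 (limma, adjusted p = 0.481, and 0.145 with the block), higher in 3 of 3 same-number pairs. Mycn, a MYC family factor that drives ribosome genes, had 0.72 ± 0.17 in the same effect (adjusted p = 0.713), also higher in 3 of 3 pairs. Eif4ebp2 had an average iron effect of 0.22 ± 0.09 (adjusted p = 0.721).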

How the data were processed

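Total RNA of 12 samples was hybridised to 1-colour Affymetrix mouse arrays, 3 per group. The authors deposited log2 values made with RMA in affy, per the submitters' processing notes, with versions not given in the sources used here. Scanner files were not used here. Of 45101 probe sets, 34958 carried 1 gene symbol, 932 several and 9211 none in the platform annotation. The probe set with the highest mean stood for each of 18194 genes. All 12 arrays entered one limma 3.58.1 fit in R 4.3.3 with group means, eBayes and Benjamini-Hochberg adjustment at 0.05, after a check on simulated data. Figures were drawn with matplotlib. The 8 comparisons share arrays.

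The members and lists were chosen with earlier results of these data known. Named genes are the 3 largest and 3 smallest changes per comparison, the extremes of level, SD and probe set disagreement, fixed reference genes and paralogs, and the 2 largest changes per other list. Not all are spelled out. Genes singled out for non-overlap or for a replicate pattern were chosen after their values were seen. Non-overlap was read in the probe set used. Other probe sets of Rpl7, Rpl22, Rpl35, Rps10, Rps14, Rps18, Rps28, Rps29 and Rpsa overlapped in a comparison where that one did not.

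Replicate numbers come from the labels. Over all genes, deviations from group means correlated between 0.263 and 0.529 in the 18 same-number pairs, so the numbers were taken to pair the arrays. Different-number pairs lay between -0.349 and -0.0149. Deviations within a group cancel out, so these negative values are not separate evidence. Over the members alone, same-number pairs ran from -0.708 to 0.780 (median 0.205). Different-number pairs ran from -0.640 to 0.749 (median -0.0512), so the 2 ranges overlapped and the members alone do not establish the pairing. Alternatives were the block, median centring, quantile normalization, other probe set rules, a filter on dim genes, a level-dependent prior and each array left out. The number of arrays limits the precision.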

Additional observations from a re-analysis of the deposited data

Results flagged for a closer look

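In 4 members every same-number pair moved one way under one condition and the opposite way under the other, while the interaction was not called. The iron difference of Rpl39 was lower in all 3 pairs with macrophages and higher in all 3 without, a difference of -0.0758 between them. The same held for Rps28 (-0.0780) in the probe set used. Its macrophage difference, by the same arithmetic -0.0780, was also lower in all pairs with iron and higher in all without. In each of the other Rps28 probe sets, FAC replicate 1 lay below alone replicate 1, at 14.1925 against 14.1992 and 14.1405 against 14.1673. The macrophage pattern held in the next brightest of the 3 Rps28 probe sets. It failed in the dimmest, where RAW replicate 1 was at 14.1604. Rpl19 (0.0665) and Rpl4 (0.0813) had macrophage differences higher in all pairs with iron and lower in all pairs without. The limma adjusted p of these 4 interactions was 1.00. Such opposite pairs were seen in 2.37% of all genes for iron and in 3.04% for macrophages, against 2 and 3 of the 50 members.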

How the results depend on the processing

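All 538 recomputed counts of called members were 0, and the smallest adjusted p of a member was 0.114. The replicate block changed no call. It cannot change a member median (FAC against alone -0.0060), because each replicate number occurs once in every group. The medians, all under 0.05 in size, moved as follows. Median centring gave -0.0123 in FAC against alone, 0.0275 in RAW_FAC against RAW, 0.0166 in RAW_FAC against FAC and 0.0417 in the interaction, where the medians of all genes were -0.0106, 0.0201, 0.0179 and 0.0371. Quantile normalization gave an interaction median of -0.00027, and the mean of a gene's probe sets 0.0026 in FAC against alone. With an array left out, with and without the block, medians ran from -0.0123 to 0.0054 in FAC against alone, 0.0017 to 0.0144 in RAW_FAC against FAC, -0.0091 to 0.0066 in RAW_FAC against alone and 0.0072 to 0.0276 in the interaction. They ran from -0.0048 to 0.0222 in RAW_FAC against RAW, -0.0124 to 0.0020 in RAW against alone, -0.0017 to 0.0084 in the average iron effect and -0.0075 to 0.0064 in the average macrophage effect, on both sides of 0. The cause of these shifts was not tested. Signals near the top, 36 of 50 members, may understate a change, which was not tested.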

Other observations

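The control probe sets for 18S rRNA, the RNA of the small subunit, had array means of 13.61, 13.69 and 13.31 in RAW_FAC, 13.68, 13.64 and 13.48 in FAC, 13.29, 13.72 and 13.51 in RAW, and 13.26, 13.73 and 13.52 in alone cells. The groups overlapped, and the range over the 12 arrays was 0.469. Exact permutation tests of the 5 comparisons between groups gave p from 0.7 to 1, in a design where 0.1 is the smallest possible.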
